A study of Mus musculus with 6 samples.

Results

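The BMP and TGF-beta signalling genes are a set of 40 gene symbols covering ligands, a protein that stores them, receptors, Smads, Id genes and extracellular or membrane antagonists, and all 40 were found by symbol among the 22851 genes of the deposited count table. Their RNA was compared between wild-type cells (WT, 3 libraries) and Edf1 knockout cells (Edf1 KO, 3 libraries). Edf1 encodes a transcriptional coactivator that also binds collided ribosomes. The cells started as radial glia, progenitors of the ventricular wall, taken from C57BL/6J mice at postnatal day 0 to 3. They were grown with 10% serum and then kept for 6 days without serum to become multiciliated ependymal cells. The knockout mice were made with CRISPR/Cas9. The labels call the 3 libraries of a genotype biological replicates, but they do not say whether each came from 1 animal or from pooled animals. Neither do they say which part of Edf1 was deleted.

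In this pathway, dimeric ligands bring type II and type I receptor kinases together, and the receptors phosphorylate Smad proteins. BMP ligands act mainly through Smad1, Smad5 and Smad9, whereas TGF-betas and activins act through Smad2 and Smad3, and Smad4 partners with both branches. Id genes are classical BMP targets. In the wall of the lateral ventricle, BMP signalling is known to favour glial fates, and ependymal cells are a known source of the BMP antagonist Noggin.

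Library totals ranged from 13071766 to 28087006 counts, with the lowest total in WT replicate 2. The targeted gene matched the labels in all 6 libraries, at 82.9 ± 2.85 CPM (counts scaled to a common library size) in WT and 11.3 ± 1.72 CPM in Edf1 KO (mean ± SD, n = 3 each). The first principal component (60.7% of the variance) separated the genotypes, and the second (16.1%) set WT replicate 2 apart from the other WT libraries. All 12 markers of multiciliated cells were detected in both genotypes, and all 12 were called lower in Edf1 KO. Their summed level was 2309 to 2570 CPM in WT and 1258 to 1352 CPM in Edf1 KO. Genes of pituitary hormones moved with the genotype as well. Prl, which encodes prolactin, was at 0 throughout WT, whereas Edf1 KO replicates 1, 2 and 3 held 198, 175 and 131 reads of it. Of 8 pituitary markers, 4 were tested. Prl, Cga (0.118 ± 0.0700 CPM in WT and 2.61 ± 0.613 CPM in Edf1 KO) and Pomc (3.50 ± 0.540 and 13.3 ± 4.16 CPM) were called higher, and Lhb (14.7 ± 1.303 and 5.59 ± 0.526 CPM; SD, n = 3 each) was called lower. Prl and Cga had too few WT counts for the count filter and entered the test through Edf1 KO alone. Their calls follow in part from the filter, and their values are given as a description. The untested Gh was at 0 throughout WT and had 15, 10 and 15 counts in Edf1 KO replicates 1, 2 and 3. Also untested, Tshb had at most 8 counts in a library and overlapped between genotypes. The pituitary factor gene Pou1f1 had at most 4 counts in a library, and Fshb was at 0 in all 6. The summed level of the list was 17.2 to 20.4 CPM in WT and 28.96 to 35.5 CPM in Edf1 KO. These are bulk libraries, so fewer cells of a type and less RNA per cell cannot be told apart.

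In Edf1 KO, 7 of 13 tested ligand and processing genes rose and 3 of 4 Id genes fell, while 1 of 9 receptors and 1 of 8 Smads were called. Of the 40 members, 38 had enough counts to be tested. By edgeR's quasi-likelihood test with Benjamini-Hochberg adjustment over all genes and a threshold of 0.05, 16 of 38 were called, 10 higher and 6 lower in Edf1 KO. Over all 14243 tested genes 26.9% were called, 12.7% higher and 14.2% lower. The median log2 fold change of the tested members was 0.057, against 0.0029 over all tested genes. At least 2-fold rises were called for 3 members, Gdf10, Bmp4 and Fst, against 1.28% of all tested genes. Gdf10 and Bmp4 reached the count filter in all 3 libraries of Edf1 KO only, so their calls follow in part from the filter and their values are given as a description. Of the members that reached it in all 6 libraries, 8 were called higher and 6 lower. The CPM ranges of the genotypes did not overlap for 20 of the 38, with Edf1 KO above WT for 11 and below it for 9, and this held for 43.3% of all tested genes. Leaving out 1 library at a time gave 12 to 17 called members, the fewest without Edf1 KO replicate 3.

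**Figure D1:**
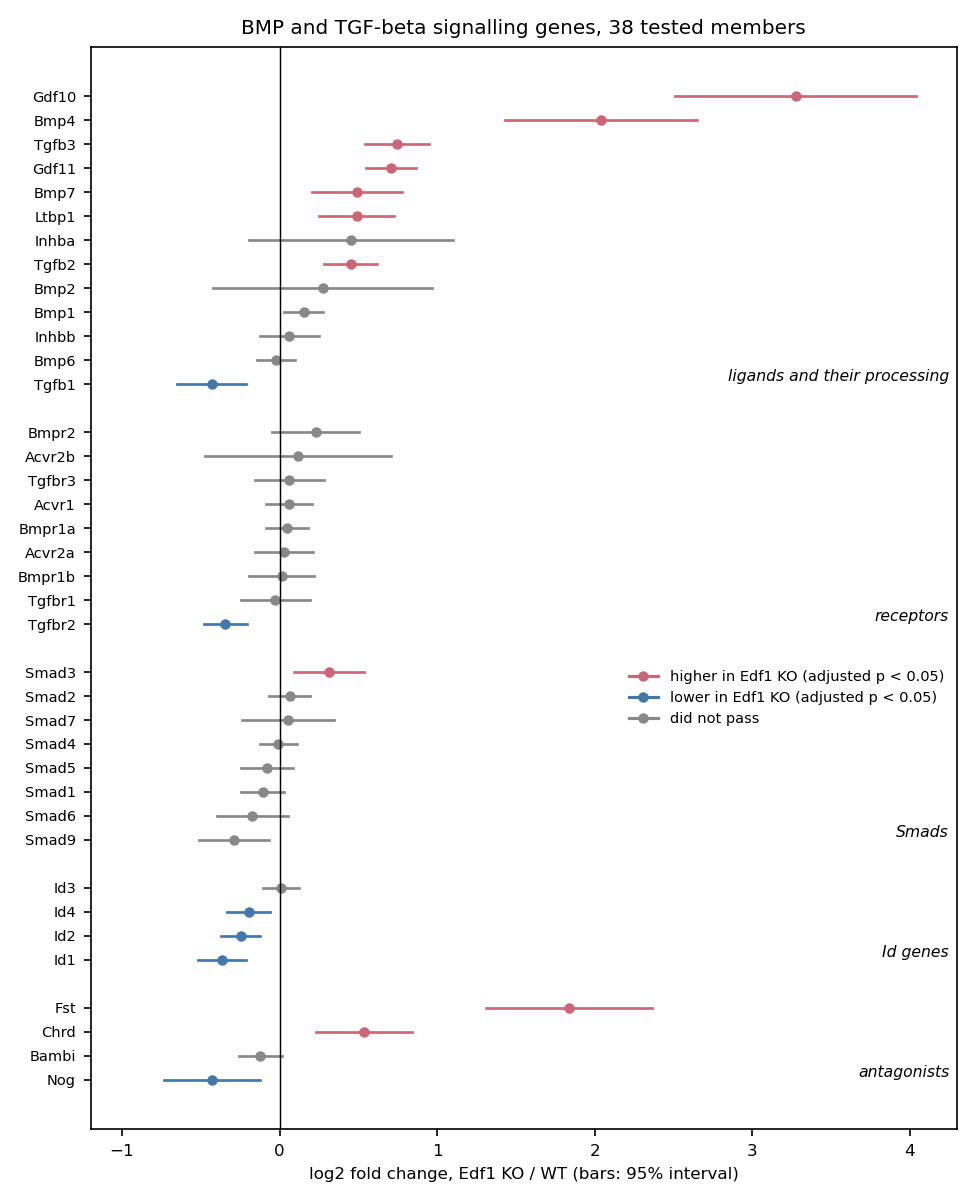
Log2 fold change (Edf1 KO over WT, x axis) of the 38 tested members, ordered by size within each role. Points are edgeR estimates, bars are 95% intervals, and colour marks members with an adjusted p under 0.05. Gdf10 (3.28), Bmp4 (2.04) and Fst (1.84) stand far to the right, and most receptors and Smads lie near 0.

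Promoter sequences are given for the ligand genes with the largest rises, Gdf10 and Bmp4, and for the 2 called Id genes with an entry in the RefSeq promoter table, so that both directions of change can be read beside the values below. Each runs 5′ to 3′ on the gene's strand (build GRCm38.p6), and those of Gdf10, Bmp4 and Id4 end just before the RefSeq start site. The Id2 stretch is only the 89 bases at the 5′ end of its window, because an annotated exon covers the rest. It stops short of the RefSeq start site. It also lies within the annotated span of the Id2 gene (chr12:25093799-25097140), so it is not upstream of that annotated gene. Capitals mark matches, on either strand, to 3 short motifs known from Smad-binding DNA: the motif CAGAC, the GC-rich palindrome GGCGCC, and the similar GC-rich motif that reads GGAGCC. No matches overlapped each other.
Gdf10, chr14:33923337-33923586, plus strand: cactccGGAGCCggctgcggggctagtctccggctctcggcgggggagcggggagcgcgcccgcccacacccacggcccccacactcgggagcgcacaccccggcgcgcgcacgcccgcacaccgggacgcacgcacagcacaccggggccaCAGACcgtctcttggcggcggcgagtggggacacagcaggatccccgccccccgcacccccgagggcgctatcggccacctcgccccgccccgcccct
Bmp4, chr14:46390670-46390919, minus strand: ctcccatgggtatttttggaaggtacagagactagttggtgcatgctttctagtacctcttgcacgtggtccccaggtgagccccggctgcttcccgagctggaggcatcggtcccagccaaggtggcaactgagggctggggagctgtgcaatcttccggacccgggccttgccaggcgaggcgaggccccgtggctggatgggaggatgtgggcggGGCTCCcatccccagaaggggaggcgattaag
Id2, chr12:25096254-25096342, minus strand: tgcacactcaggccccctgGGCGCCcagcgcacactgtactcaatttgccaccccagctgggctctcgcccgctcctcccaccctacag
Id4, chr13:48260866-48261115, plus strand: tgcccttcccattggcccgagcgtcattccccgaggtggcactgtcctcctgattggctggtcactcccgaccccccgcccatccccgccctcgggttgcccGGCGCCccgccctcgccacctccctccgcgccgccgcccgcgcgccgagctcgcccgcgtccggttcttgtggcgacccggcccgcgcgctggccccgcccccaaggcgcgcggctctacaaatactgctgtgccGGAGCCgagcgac
The table held 34 promoters for 28 of the 40 members, since some genes have several start sites. In the 250 bases before the start, CAGAC occurred in 15 of the 34 and in 42.2% of all 32851 promoters, GGCGCC in 9 of 34 and in 9.59% of all, and GGAGCC in 19 of 34 and in 26.0% of all. Id2 and Id4 both held GGCGCC and GGAGCC, with the GGAGCC of Id2 in the stretch covered by the exon and not printed, while Id3, whose level did not pass the test, held CAGAC and GGAGCC. A match is a description of the letters, and base composition was not matched between these promoters and the rest.

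Among the BMP and GDF ligands, Gdf10, Bmp4, Gdf11 and Bmp7 were called higher, whereas Bmp2 and the most abundant ligand, Bmp6, were not called. Gdf10, which encodes a secreted relative of Bmp3, had 0.226, 0.233 and 0.162 CPM in WT replicates 1, 2 and 3 and 1.72, 2.34 and 2.09 CPM in Edf1 KO replicates 1, 2 and 3. Every Edf1 KO library was above every WT library. By edgeR the adjusted p was 2.65e-05 for a log2 fold change of 3.28 (SE 0.353). It rests on few WT reads, and Gdf10 entered the test through Edf1 KO alone. The summed counts were 12 in WT and 129 in Edf1 KO, a depth-scaled ratio of 9.97 with an exact 95% interval of 5.51 to 19.8, which covers counting error only.

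Bmp4, a ligand that dorsalises the neural tube, had 0.866, 1.01 and 0.432 CPM in WT and 3.26, 2.90 and 3.26 CPM in Edf1 KO. The groups were well apart, and the log2 fold change was 2.04 (SE 0.279, adjusted p 0.000167 by edgeR). Like Gdf10, Bmp4 reached the count filter in all libraries of Edf1 KO only. Gdf11, a ligand close to myostatin that signals through Smad2 and Smad3, had 17.6, 17.3 and 17.7 CPM in WT and 28.6, 29.2 and 28.3 CPM in Edf1 KO. Replicates lay close together within each genotype, and the log2 fold change was 0.71 (SE 0.073, adjusted p 1.83e-05 by edgeR). Bmp7, which acts through the BMP Smads, rose from 8.44, 7.38 and 6.87 CPM to 10.7, 12.1 and 9.52 CPM. Its groups did not overlap, and the log2 fold change was 0.49 (SE 0.131, adjusted p 0.0147 by edgeR), but the call was lost without Edf1 KO replicate 2 (0.40, adjusted p 0.0713 by edgeR).

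Bmp6 was the most abundant ligand gene in both genotypes. It had 235, 258 and 224 CPM in WT and 236, 241 and 230 CPM in Edf1 KO, which overlapped. Its log2 fold change of -0.02 did not pass (adjusted p 0.812 by edgeR), with a 95% interval of -0.14 to 0.10. Bmp2 had 1.01 ± 0.338 CPM in WT and 1.21 ± 0.215 CPM in Edf1 KO (SD, n = 3 each), and its interval of -0.42 to 0.97 leaves its direction unresolved at these counts. Bmp5 had too few counts to be tested, 5 over all WT libraries and 6 over all Edf1 KO libraries.

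Per kilobase of exon (RPKM, CPM divided by the summed exon length), Bmp6 made up 89.9% ± 0.554 of the summed level of 7 BMP and GDF ligand genes in WT and 83.5% ± 0.186 in Edf1 KO (SD, n = 3 each). The sum of all 7 was 68.2 ± 4.60 RPKM in WT and 72.3 ± 1.92 RPKM in Edf1 KO, and the genotypes overlapped. Without Bmp6, the sum was 7.19, 6.99 and 6.48 RPKM in WT and 11.9, 12.4 and 11.5 RPKM in Edf1 KO. On this scale the rises of Gdf11, Bmp7, Bmp4 and Gdf10 added to a small part of the ligand RNA, and Gdf11 was the largest contributor to that part.

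The 3 TGF-beta isoforms did not move alike. Tgfb1 fell, and Tgfb2 and Tgfb3 rose. Tgfb1, the isoform best known from immune cells and microglia, had 21.2, 25.7 and 22.3 CPM in WT and 19.2, 15.9 and 16.1 CPM in Edf1 KO. All Edf1 KO libraries were below all WT libraries. The estimate was -0.43 on the log2 scale (SE 0.101, adjusted p 0.00724 by edgeR). Tgfb2, an isoform prominent in the developing nervous system, had 29.0, 24.8 and 28.7 CPM in WT and 37.1, 38.8 and 37.6 CPM in Edf1 KO. The log2 fold change was 0.45 (SE 0.0766, adjusted p 0.000872 by edgeR), and the groups did not overlap. Tgfb3, the remaining isoform, had 16.1, 14.8 and 14.97 CPM in WT and 24.9, 28.9 and 23.7 CPM in Edf1 KO. Its estimate was the highest of the 3 isoforms, at 0.74 on the log2 scale (SE 0.0932, adjusted p 8.51e-05 by edgeR), again without overlap.

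The isoforms had similar levels per kilobase in WT, so their shares changed. Tgfb1 made up 30.1%, 37.0% and 32.1% of the summed isoform RPKM in WT and 21.6%, 17.1% and 19.2% in Edf1 KO. Tgfb3 made up 32.6% ± 1.20 in WT and 43.4% ± 2.60 in Edf1 KO, and Tgfb2 34.3% ± 2.76 and 37.3% ± 1.40 (SD, n = 3 each). The summed level of the 3 isoforms was 13.8 ± 0.107 RPKM in WT and 17.5 ± 0.847 RPKM in Edf1 KO. Most microglial markers moved in the same direction as Tgfb1. Of 16 markers, 15 were tested and 13 were called lower, none higher, beside 14.2% of all tested genes called lower. Estimates for Tmem119 (-0.26) and Ptprc (0.01) did not pass. The summed level of the 16 was 2497 to 2664 CPM in WT and 1626 to 1695 CPM in Edf1 KO. None of the 16 was at 0 in all libraries, though Siglech was at 0 in Edf1 KO replicate 2, and their part in the fall of Tgfb1 was not tested.

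**Figure D2:**
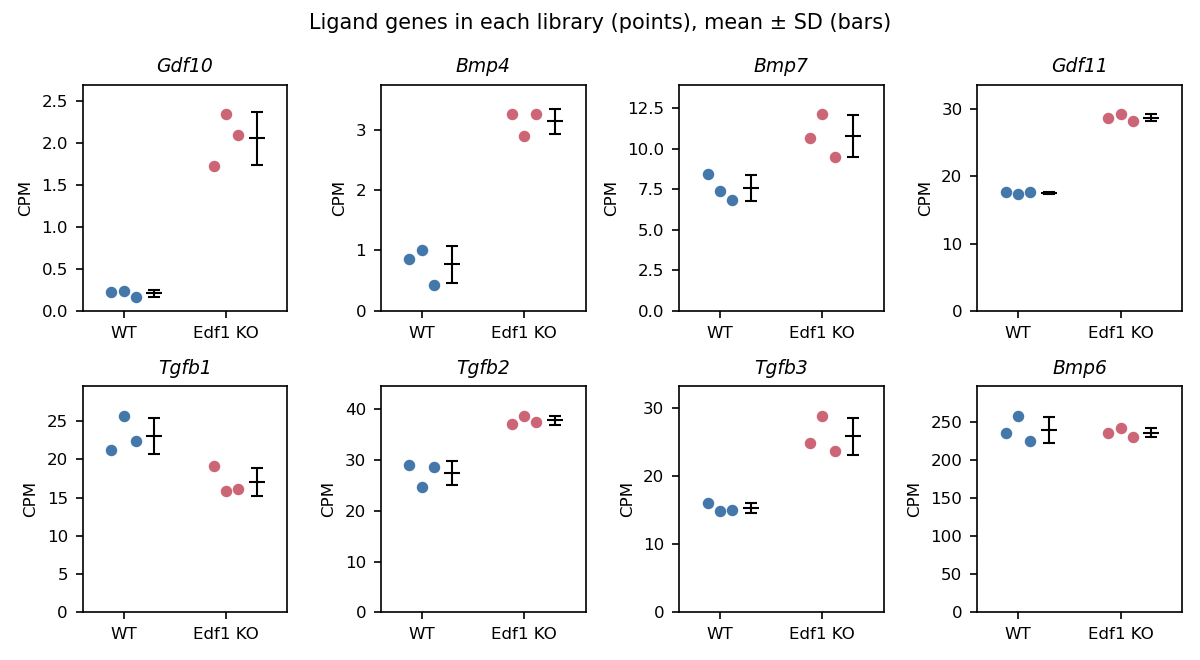
CPM (y axes, from 0) of 8 ligand genes in each library, with WT in blue, Edf1 KO in red and mean ± SD (n = 3) as bars. Gdf10, Bmp4, Bmp7, Gdf11, Tgfb2 and Tgfb3 are higher in every Edf1 KO library, Tgfb1 is lower in every one, and Bmp6 overlaps near 240 CPM.

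**Figure D3:**
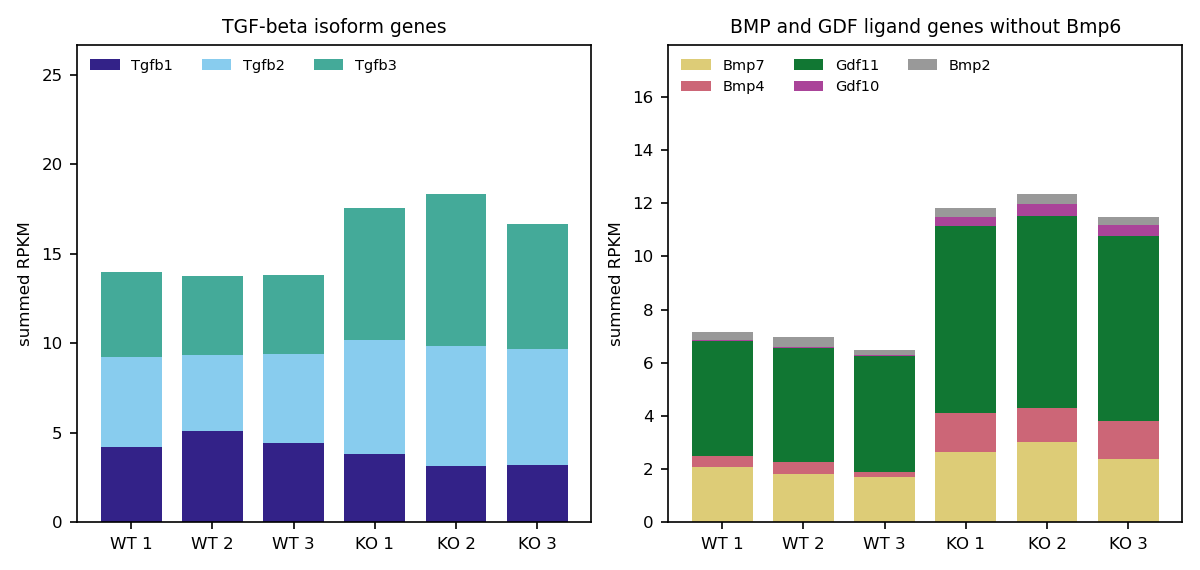
Summed RPKM in each of the 6 libraries, stacked by gene, for the TGF-beta isoforms (left) and for the BMP and GDF ligands other than Bmp6 and the barely detected Bmp5 (right). Tgfb1 shrinks and Tgfb3 grows from WT to Edf1 KO, and Gdf11 is the tallest segment on the right in all 6 libraries.

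The latent TGF-beta binding protein gene Ltbp1, whose product holds TGF-beta in the extracellular matrix, rose as well. It had 8.93, 7.77 and 9.24 CPM in WT and 12.05, 13.1 and 11.6 CPM in Edf1 KO. No libraries overlapped, and the log2 fold change was 0.49 (SE 0.109, adjusted p 0.0055 by edgeR). Bmp1, which despite its name encodes a metalloprotease that processes procollagen and cleaves Chordin, had 93.3, 100.2 and 92.2 CPM in WT and 102.5, 110.2 and 104.8 CPM in Edf1 KO. All Edf1 KO libraries were higher, yet the log2 fold change of 0.15 missed the threshold (adjusted p 0.0638 by edgeR). It passed without WT replicate 2 (0.19, adjusted p 0.00523 by edgeR). The activin subunit genes Inhba and Inhbb did not pass, with log2 fold changes of 0.45 (95% interval -0.19 to 1.10) and 0.06 (-0.13 to 0.25). Inhba was low, at 1.252 ± 0.432 CPM in WT and 1.74 ± 0.389 CPM in Edf1 KO (SD, n = 3 each).

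Of the 9 receptor genes, all were tested and only Tgfbr2 was called, 11.1% beside 26.9% of all tested genes. Tgfbr2, the type II receptor that binds TGF-beta directly, had 66.0, 58.7 and 64.3 CPM in WT and 51.3, 47.9 and 49.95 CPM in Edf1 KO. Every Edf1 KO library was lower, and the log2 fold change was -0.35 (SE 0.0628, adjusted p 0.00143 by edgeR). Its direction matched that of Tgfb1 and of most of the microglial markers given above, whose part in it was not tested. Tgfbr1, the type I partner of Tgfbr2, had 46.3 ± 7.81 CPM in WT and 45.8 ± 2.73 CPM in Edf1 KO, and the coreceptor gene Tgfbr3 (betaglycan) had 11.9 ± 1.10 and 12.5 ± 0.383 CPM (SD, n = 3 each). Their 95% intervals on the log2 scale were -0.24 to 0.19 and -0.16 to 0.28.

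None of the BMP and activin receptors passed. Bmpr1a, a type I BMP receptor, was the most abundant receptor gene per kilobase, at 26.5 ± 1.92 RPKM in WT and 27.4 ± 1.13 RPKM in Edf1 KO. Acvr1, another type I receptor, followed with 8.17 ± 0.0723 and 8.53 ± 0.533 RPKM. In WT, Tgfbr2 (7.69 ± 0.462 RPKM) and Tgfbr1 (7.09 ± 1.20 RPKM) came next, and the mean ± SD ranges of these 3 genes overlapped. Acvr2a, Bmpr2 and Bmpr1b had between 3.13 and 3.92 RPKM in WT, Tgfbr3 had 1.82 ± 0.168 RPKM, and Acvr2b was lowest at 0.505 ± 0.152 RPKM. The 95% intervals of the log2 fold changes of Bmpr1a (-0.08 to 0.18), Acvr1 (-0.09 to 0.21), Acvr2a (-0.16 to 0.21) and Bmpr1b (-0.19 to 0.22) were narrow. Those of Bmpr2 (-0.05 to 0.51) and Acvr2b (-0.48 to 0.71) are wider. Bmpr2, the type II BMP receptor, had 67.3, 46.6 and 75.7 CPM in WT, and WT replicate 2 was the lowest. Without WT replicate 3, Bmpr2 was called higher (0.37, adjusted p 0.0372 by edgeR).

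Among the 8 Smad genes, Smad3 alone was called, 12.5% beside 26.9% of all tested genes. Smad3, a signal carrier of TGF-beta and activin receptors, had 21.5, 17.2 and 21.9 CPM in WT and 27.97, 24.0 and 24.4 CPM in Edf1 KO. The groups did not overlap, and the estimate was 0.31 on the log2 scale (SE 0.102, adjusted p 0.0377 by edgeR). The call was lost without WT replicate 1 or without any of the 3 Edf1 KO libraries, with log2 fold changes of 0.25 to 0.37 and adjusted p of 0.0529 to 0.149 by edgeR. Its partner in the same branch, Smad2, had 49.0 ± 1.65 CPM in WT and 51.3 ± 2.19 CPM in Edf1 KO, and the shared Smad4 had 79.8 ± 2.91 and 79.5 ± 0.231 CPM (SD, n = 3 each). Their 95% intervals were -0.07 to 0.20 and -0.13 to 0.11.

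The 3 BMP Smads all had negative estimates, and none passed. Smad9 came closest, with 19.2, 20.98 and 20.1 CPM in WT and 15.9, 19.1 and 14.5 CPM in Edf1 KO. All Edf1 KO libraries were below WT, at a log2 fold change of -0.29 (adjusted p 0.0554 by edgeR), and without Edf1 KO replicate 2 the call was made (-0.40, adjusted p 0.0168 by edgeR). Smad1 had a log2 fold change of -0.11 (95% interval -0.24 to 0.03). Smad5 had -0.08 (-0.25 to 0.09), and without WT replicate 2 it was called lower (-0.17, adjusted p 0.0128 by edgeR). The inhibitory Smads, which feed back on the pathway, did not pass either: Smad6 had 18.3 ± 2.58 CPM in WT and 16.1 ± 0.80 CPM in Edf1 KO, and Smad7 had 7.39 ± 0.937 and 7.71 ± 0.70 CPM (SD, n = 3 each).

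The Id genes encode helix-loop-helix proteins that lack a DNA-binding region and block other factors of that family. All 4 were abundant, between 45.7 and 58.5 RPKM in WT. Of the 4, 3 were called lower, beside 14.2% of all tested genes. Id1 had 53.0, 59.8 and 51.3 CPM in WT and 40.3, 42.5 and 43.8 CPM in Edf1 KO. No Edf1 KO library reached the WT range, and the log2 fold change was -0.37 (SE 0.070, adjusted p 0.00195 by edgeR). Id2 had 108.7, 117.2 and 108.8 CPM in WT and 98.6, 90.4 and 92.8 CPM in Edf1 KO. Its groups did not overlap, with an estimate on the log2 scale of -0.25 (SE 0.0578, adjusted p 0.00726 by edgeR). Id4 had 194, 226 and 196 CPM in WT and 181, 173 and 183 CPM in Edf1 KO, an estimate of -0.20 on the log2 scale (SE 0.0624, adjusted p 0.036 by edgeR).

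The Id4 call was lost when any 1 of the 3 Edf1 KO libraries was left out (-0.21 to -0.17, adjusted p 0.0739 to 0.141 by edgeR), whereas those of Id1 and Id2 held in each such fit. Id3 had 103.7, 107.8 and 102.7 CPM in WT and 105.2, 107.0 and 103.7 CPM in Edf1 KO, which overlapped. Its log2 fold change was 0.01 with a 95% interval of -0.10 to 0.12, which does not reach the estimates of Id1, Id2 or Id4, though the difference between Id genes was not itself tested. Id3 made up 28.6% ± 0.917 of the summed Id RPKM in WT and 32.6% ± 0.796 in Edf1 KO, and Id1 made up 23.02% ± 0.571 and 20.2% ± 0.862 (SD, n = 3 each). The sum over the 4 genes was 198.6, 218.6 and 197.0 RPKM in WT and 180.8, 178.4 and 181.3 RPKM in Edf1 KO.

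The antagonists divided between both directions. Fst encodes Follistatin, which binds activins and related ligands, and it had 2.30, 1.24 and 1.51 CPM in WT and 5.35, 8.13 and 5.63 CPM in Edf1 KO. All Edf1 KO libraries were above every WT library, and the log2 fold change was 1.84 (SE 0.243, adjusted p 0.000127 by edgeR). The part of the pituitary markers given above, of which 3 were called higher and 1 lower, was not tested for Fst, Gdf10 or Bmp4. Chrd encodes the BMP antagonist Chordin and rose from 4.52, 3.96 and 4.76 CPM to 6.58, 6.13 and 6.62 CPM. Its log2 fold change was 0.54 (SE 0.140, adjusted p 0.0134 by edgeR), and it was not called without Edf1 KO replicate 3 (0.52, adjusted p 0.0594 by edgeR). Nog, the gene of Noggin, had 8.40, 11.3 and 9.19 CPM in WT and 7.93, 6.52 and 6.76 CPM in Edf1 KO.

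For Nog the nearest libraries of the 2 genotypes were close, and the log2 fold change was -0.43 (SE 0.140, adjusted p 0.0385 by edgeR). The Nog call was lost without WT replicate 2, WT replicate 3, Edf1 KO replicate 2 or Edf1 KO replicate 3 (-0.45 to -0.32, adjusted p 0.0566 to 0.132 by edgeR). Markers of multiciliated cells, given above, were lower in the same libraries, and their part in the fall of Nog was not tested. Bambi, a membrane pseudoreceptor, was the most abundant antagonist gene at 9.91 ± 0.599 RPKM in WT and 9.09 ± 0.144 RPKM in Edf1 KO. All its Edf1 KO libraries were below WT, but its log2 fold change of -0.12 did not pass (adjusted p 0.171 by edgeR). Grem1 was barely detected, with 2 counts over all WT libraries and 10 over all Edf1 KO libraries. The depth-scaled ratio was 4.64, with an exact 95% interval of 0.988 to 43.5, and it was not tested.

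**Figure D4:**
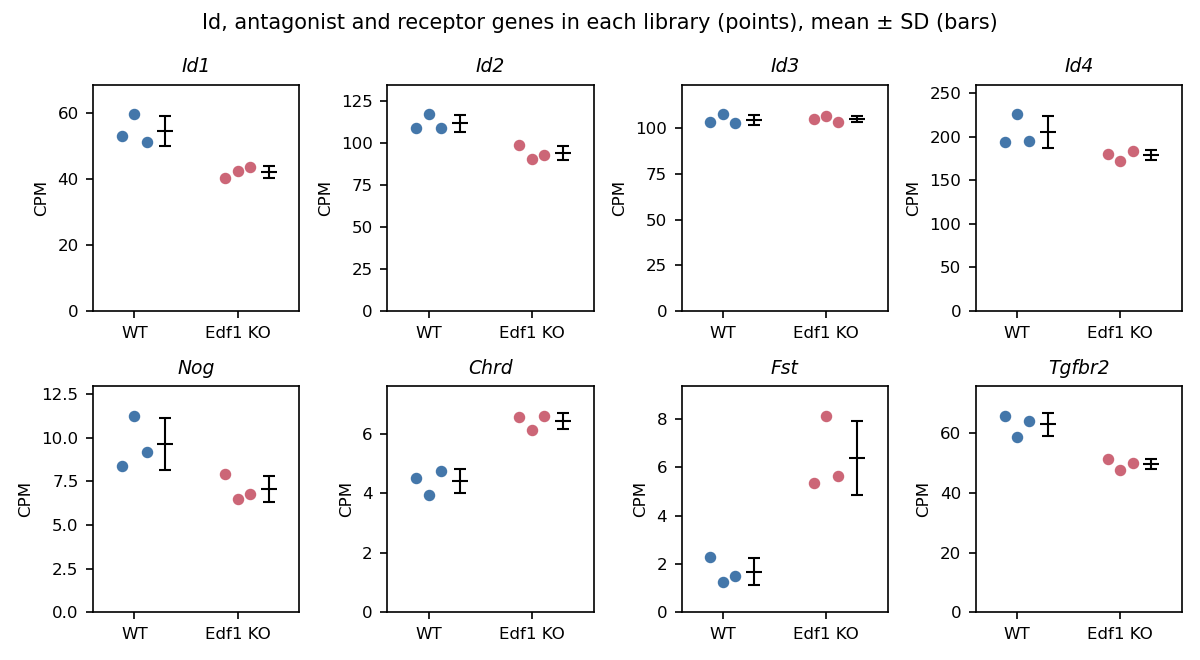
CPM (y axes, from 0) of the 4 Id genes, 3 antagonist genes and Tgfbr2 in each library, with WT in blue, Edf1 KO in red and mean ± SD (n = 3) as bars. Id1, Id2, Id4, Nog and Tgfbr2 are lower in every Edf1 KO library, Chrd and Fst are higher, and Id3 overlaps near 105 CPM.

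Other genes of the pathway were counted by role from lists chosen with earlier results of these data known, and 102 were tested. Of the 102, 40 were called higher and 8 lower, 47.1% called in all. Of the 40, 37 reached the count filter in all 6 libraries and 3 in all libraries of Edf1 KO only. Over all tested genes 26.9% were called, 12.7% higher and 14.2% lower, and the counts by role below are to be read beside these shares. Among 8 further ligands 3 were higher and 1 lower. Gdf3 and Gdf15, ligands at low levels that reached the count filter in all libraries of Edf1 KO only, had log2 fold changes of 1.26 and 0.94 (adjusted p 0.0211 and 0.0473 by edgeR). The Gdf3 call was lost without WT replicate 1, Edf1 KO replicate 1 or Edf1 KO replicate 3 (0.99 to 1.18, adjusted p 0.0849 to 0.108 by edgeR). The Gdf15 call was lost without any library but WT replicate 1 (0.74 to 1.07, adjusted p 0.0569 to 0.211 by edgeR). Gdf5, a BMP-type ligand of joints, fell from 3.36 ± 0.268 to 1.80 ± 0.147 CPM (SD, n = 3 each; log2 fold change -0.90, adjusted p 0.00531 by edgeR).

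Of 6 further receptors and coreceptors, only Eng was called, 16.7% beside 26.9% of all tested genes. It encodes the TGF-beta coreceptor Endoglin and had a log2 fold change of 0.84 (adjusted p 0.0217 by edgeR). Of 9 endothelial markers, 4 were tested. Kdr was called higher (38.1 ± 3.16 CPM in WT and 126.9 ± 2.16 CPM in Edf1 KO) and Flt1 lower (11.3 ± 0.649 and 3.81 ± 0.277 CPM). The sum of the list was 676 to 738 CPM in WT and 792 to 820 CPM in Edf1 KO. Most of it was Slco1a4, which did not pass (630 ± 30.8 and 638 ± 14.6 CPM; SD, n = 3 each). Among untested markers, Cdh5 was higher in every Edf1 KO library, Pecam1 and Tek overlapped, and Cldn5 and Emcn never exceeded 3 counts. The part of endothelial cells in the Eng value was not tested. The Eng call was lost without WT replicate 3 or any 1 Edf1 KO library (0.61 to 0.87, adjusted p 0.0526 to 0.0746 by edgeR). Among 12 further extracellular antagonists 5 were higher and none lower. The largest rises were those of Chrdl1, a Chordin relative, from 46.1 ± 3.93 to 73.0 ± 2.25 CPM (log2 fold change 0.66, adjusted p 1.84e-05 by edgeR), and Tmeff1, a membrane protein with follistatin domains, from 5.05 ± 0.345 to 7.71 ± 0.578 CPM (0.60, adjusted p 0.00535 by edgeR; SD, n = 3 each). Of 31 intracellular modulators, 3 were higher and 2 lower, 16.1% called beside 26.9% of all tested genes. Usp15, a deubiquitinase that acts on receptors and Smads, rose from 76.4 ± 3.31 to 120.4 ± 1.453 CPM (0.65, adjusted p 3.47e-06 by edgeR), and the Smad corepressor gene Tgif1 fell from 74.5 ± 5.38 to 54.1 ± 2.41 CPM (-0.46, adjusted p 0.000255 by edgeR; SD, n = 3 each).

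The other 2 modulators named by rank changed little. Zfyve16, which encodes an endosomal protein, had a log2 fold change of 0.21 (adjusted p 0.0429 by edgeR), and the ubiquitin ligase gene Nedd4l had -0.19 (adjusted p 0.019 by edgeR). The Zfyve16 call was lost without WT replicate 1 or 3 or Edf1 KO replicate 1 or 3 (0.15 to 0.25, adjusted p 0.0551 to 0.205 by edgeR). The Nedd4l call was lost without WT replicate 1 or Edf1 KO replicate 2 or 3 (-0.20 to -0.17, adjusted p 0.0641 to 0.0919 by edgeR).

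Genes for latency, processing and matrix binding of the ligands changed in both directions. Of 18 tested, 11 were called higher and 3 lower, beside 12.7% and 14.2% of all tested genes, with a median log2 fold change of 0.30. Dcn, the gene of the TGF-beta-binding proteoglycan Decorin, rose from 8.19 ± 0.64 to 19.7 ± 5.66 CPM (log2 fold change 1.253, adjusted p 0.000292 by edgeR), and the fibrillin gene Fbn2 from 0.879 ± 0.0893 to 1.95 ± 0.231 CPM (1.10, adjusted p 0.00774 by edgeR). Itgb8 encodes an integrin subunit that activates latent TGF-beta and fell from 112.1 ± 17.1 to 70.1 ± 1.26 CPM (-0.68, adjusted p 0.000131 by edgeR). The proprotein convertase gene Pcsk6 fell from 61.1 ± 0.682 to 45.0 ± 1.21 CPM (-0.44, adjusted p 9.17e-05 by edgeR; SD, n = 3 throughout).

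The listed genes known to respond to TGF-beta were mostly higher in Edf1 KO. Of 18 tested, 15 were called higher and none lower, beside 12.7% of all genes called higher, and the median log2 fold change was 0.42. Postn, a matricellular protein gene, rose from 3.001 ± 0.218 to 7.94 ± 1.24 CPM (log2 fold change 1.38, adjusted p 6.83e-05 by edgeR; SD, n = 3 each). Ccn2, a classical TGF-beta target, had 451 CPM in WT and 454 CPM in Edf1 KO, with a log2 fold change of 0.01 that did not pass (adjusted p 0.909 by edgeR). The list left out the feedback gene Smad7 and the modulators Skil and Pmepa1, which were counted under other roles. Their log2 fold changes of 0.05, -0.04 and -0.23 did not pass (adjusted p 0.804, 0.812 and 0.121 by edgeR).

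Some fibroblast and mural cell markers were higher in the same libraries. Of 15 fibroblast markers, 11 were tested and 7 were called higher, none lower, and their sum was 319 to 358 CPM in WT and 484 to 501 CPM in Edf1 KO. Most of this sum was Ogn, at 256 ± 11.5 and 343 ± 26.0 CPM (SD, n = 3 each). Estimates for Foxd1 (0.65), Foxc1 (0.40), Igf2 (0.02) and Aldh1a2 (-0.25) did not pass, and the untested Tbx18, Slc6a13 and Crabp2 overlapped between genotypes. Of 10 mural markers, 5 were tested, and Pdgfrb, Notch3 and Acta2 were called higher. The sum of this list was 548 to 578 CPM in WT and 660.4 to 715 CPM in Edf1 KO. Most of it was Acta2, at 475 ± 19.0 and 586 ± 21.9 CPM (SD, n = 3 each). Estimates for Myh11 (-0.76) and Anpep (0.03) did not pass. At few counts and with overlapping groups, the untested Rgs5 and Vtn had lower means in Edf1 KO and Kcnj8 a higher one. Slc22a6 was at 0 in every library, and Abcc9 and Higd1b never exceeded 3 counts. A total of 4 genes of the TGF-beta response list, Col1a1, Col1a2, Col3a1 and Acta2, are also on these marker lists. Of the 14 other tested response genes, 11 were called higher and none lower, with a median log2 fold change of 0.39. Only genes on both kinds of list were set aside, so these 14 may still include genes expressed by fibroblasts or mural cells. Of 11 choroid plexus markers, 7 were tested and 3 were called higher, Trpm3, Otx2 and Cldn2, none lower. Their sum was 121 to 147 CPM in WT and 164 to 189 CPM in Edf1 KO, and Trpm3 alone had 5.97 ± 0.608 CPM in WT and 34.6 ± 2.97 CPM in Edf1 KO (SD, n = 3 each). Estimates for Ttr (-0.11), Clic6 (-0.27) and Kcnj13 (-0.40) were negative and did not pass, and the untested Aqp1 and Kcne2 had fewer CPM in every Edf1 KO library than in any WT library. The part of these cell types in the rises of the response genes, the matrix genes, Ltbp1 and the ligands was not tested.

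Genes known to respond to BMP did not share a direction. Of 9 tested, 2 were called higher and 2 lower, beside 12.7% and 14.2% of all tested genes, with a median log2 fold change of -0.12. Gata2 and Runx2, transcription factor genes, had log2 fold changes of 1.10 and 0.46 (adjusted p 0.0388 and 0.0173 by edgeR), and Gata2 also reached the filter in all libraries of Edf1 KO only. Msx1 and Atoh8, whose products are also transcription factors, had -0.53 and -0.31 (adjusted p 0.0301 and 0.0269 by edgeR). The Msx1 call was lost in each of the 6 fits without 1 library (-0.58 to -0.50, adjusted p 0.0533 to 0.102 by edgeR), and that of Gata2 without any library but WT replicate 2 (0.83 to 1.33, adjusted p 0.0502 to 0.129 by edgeR). Atoh8 was lost without WT replicate 1 or any 1 Edf1 KO library (-0.35 to -0.27, adjusted p 0.0528 to 0.114 by edgeR), and Runx2 without WT replicate 1 or Edf1 KO replicate 1 or 3 (0.43 to 0.45, adjusted p 0.0526 to 0.0720 by edgeR).

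**Figure D5:**
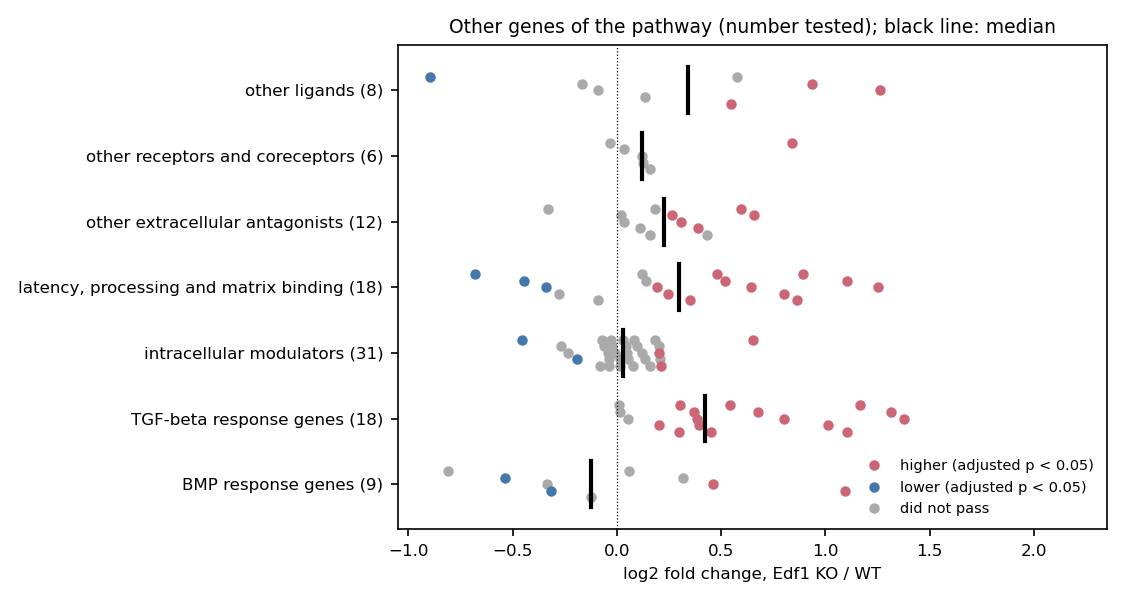
Log2 fold change (Edf1 KO over WT, x axis) of 102 other tested pathway genes by role, with the number tested in brackets, 1 point a gene, coloured where the adjusted p was under 0.05, and the median as a black line. The TGF-beta response genes lie above 0 with a median of 0.42, while the intracellular modulators centre near 0.03 and the BMP response genes near -0.12.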

How the data were processed

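Per the labels' protocols, TRIzol was used for extraction and an MGIEasy mRNA kit for the libraries. The authors deposited 1 table of whole-number read counts per gene symbol, with 1 column per library. FastQC 0.11.2, cutadapt 1.11, HISAT2 2.1.0 and the build GRCm38 are named in the submitters' processing notes. The counting program, annotation and strand setting are not given in the sources used here. Without strand, reads of a gene and an overlapping antisense gene cannot be told apart. Among tested members the largest such overlap, for Acvr2a, covered 7.84% of the exon length, and at most 4.13% of a member's 31-base stretches occurred in another gene.

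Counts were fitted as deposited with edgeR 4.0.16 in R 4.3.3 (filterByExpr, TMM factors, quasi-likelihood test, Benjamini-Hochberg adjustment over 14243 of 22851 genes). The SE was obtained from the F statistic and the estimate. CPM uses TMM-scaled library sizes, and RPKM divides it by the union exon length of GENCODE M21. Groups and replicate numbers came from the sample titles. Alternatives were other size factors, library size alone, other count filters, DESeq2 1.42.0, limma voom (limma 3.58.1), a replicate block, each library left out, a threshold of 0.01, and a GC and length correction chosen after seeing the data. The members and lists were chosen with earlier results of these data known. Every called member is named with its value in each library, and the other members more briefly. From each list of other pathway genes, the called genes with the 2 largest rises and the 2 largest falls are named, except 1 gene that is not reported here. Ccn2, Skil and Pmepa1 were chosen after their values were seen. P-values set the difference between the genotypes against the spread between these libraries, and whether that is a spread between animals or pools is not stated.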

Additional observations from a re-analysis of the deposited data

How the results depend on the processing

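Of the 16 called members, 11 kept their call and direction under every alternative that tested them, and none changed direction. Gdf10 and Bmp4 fall out when a mean of 50 counts is required. The calls lost elsewhere were those of Bmp7, Smad3, Id4, Nog and Chrd, also at a threshold of 0.01. That threshold left 11 called members, 4 other pathway genes called lower, 7 latency, processing and matrix binding genes called higher, and 2213 of all tested genes, against 3833. Leaving out 1 library gave 4 to 7 other pathway genes called lower, 8 to 12 latency, processing and matrix binding genes called higher, and 2658 to 4340 called genes. The members' median log2 fold change of 0.057 was 0.023 under the GC and length correction, and the cause was not tested. Among the named other genes, DESeq2 did not call Gdf15 (adjusted p 0.0713), Gata2 (0.0693) or Msx1 (0.0669), and the GC and length correction did not call Zfyve16 (adjusted p 0.0806).

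Reversals touched 9 members near 0, none called. With library size alone Smad4 was at 0.0054. Under limma voom Bmpr1b was at -0.00014. Under the GC and length correction Bmpr1a was at -0.011, Bmpr1b at -0.031, Acvr2a at -0.033 and Smad4 at 0.022. Across the fits without 1 library, log2 fold changes ran from -0.063 to 0.033 for Bmp6, -0.14 to 0.076 for Tgfbr1, -0.0086 to 0.092 for Bmpr1a, -0.049 to 0.10 for Bmpr1b, -0.015 to 0.11 for Acvr2a, -0.084 to 0.42 for Acvr2b, -0.036 to 0.012 for Smad4, -0.023 to 0.13 for Smad7 and -0.0036 to 0.028 for Id3. The cause was not tested.

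With the replicate number as a block, 18 members were called, the same 16 plus Bmp1 (0.15) and Smad9 (-0.30), among 4065 genes. Smad9 was also called under limma voom, without the count filter and under the GC and length correction (adjusted p 0.0440, 0.0454 and 0.0323), and Bmp1 with library size alone and under limma voom (0.0391 and 0.0497). Same-numbered libraries deviated together with correlations of 0.069, 0.060 and 0.037. These are small, yet each library correlated best with its own number. The values do not settle whether same-numbered libraries were paired, and the main fit assumed no pairing. Low counts limit Gdf10 (12 in all of WT, SE 0.353), Bmp2, Inhba, Bmp4 and Acvr2b, and left Bmp5 and Grem1 untested.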
